A study of Ipomoea batatas with 18 samples.

Results

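The late stage of storage root growth in the high-starch sweetpotato (Ipomoea batatas) cultivar Chuanshu 218 is described here as the difference between roots of 100 days and roots of 65 days. The unigenes described had an FPKM of at least 1 in at least 3 of the 6 libraries of these ages, which held for 26786 of the 46840 deposited unigenes (57.2%). They are called expressed unigenes below. A unigene is a transcript of a de novo assembly, and FPKM is the fragments counted for a transcript, scaled by transcript length and by how many fragments of the library were mapped. The series asked how root transcriptomes of a high-starch and a low-starch cultivar compare over 3 periods of growth.

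The groups are roots of Chuanshu 218 at 100 days (3 libraries) and roots of Chuanshu 218 at 65 days (3 libraries). Roots of Chuanshu 218 at 30 days and of the low-starch cultivar 15-94 at 30, 65 and 100 days (3 libraries each) are used only as context. Roots were set 1 to a pot in a naturally lit greenhouse, and no allele or agent beyond cultivar and age is named. The labels do not tie a library to a plant, so the spread between libraries may be partly technical.

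A sweetpotato storage root thickens from an adventitious root whose cambia give rise to starch-filled parenchyma. Sucrose from the leaves is cleaved in the root, by sucrose synthase among others, and ADP-glucose pyrophosphorylase and starch synthases build starch from it in amyloplasts. Maturing roots also store protein, mainly sporamin, and contain much beta-amylase. The deposited table gives IDs without gene names, and 0 of its IDs matched the RefSeq gene table of assembly IBA_r1.0. None of these genes could therefore be looked up, the root identity of the tissue could not be checked with markers, and unigenes are described by level, difference and library.

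Across the whole expressed transcriptome the 2 ages had nearly the same centre. The median difference, 100 days minus 65 days on the log2(FPKM + 1) scale on which all differences below are given, was 0.02 over expressed unigenes. The quartiles were -0.41 and 0.44, and the 5th and 95th percentiles -1.11 and 1.08. The median expressed unigene had 7.38, 7.22 and 7.41 FPKM in the 100-day libraries, against 7.26, 7.41 and 7.12 FPKM in the 65-day libraries. In all 6 libraries 71.6% of the expressed unigenes reached 1 FPKM.

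The 6 libraries differed in depth more at 65 days than at 100 days. Read totals are unknown, but the FPKM of unigenes with few reads are multiples of the amount a single read adds. That amount, relative to the smallest among all libraries (log2), was 0.27, 0.33 and 0.49 at 100 days, against 0.86, 0.08 and 0.68 at 65 days. A larger value means a shallower library, provided that the FPKM were not scaled further. Unigenes above 0 FPKM numbered 33914, 33399 and 34134 at 100 days, against 30023, 36939 and 31460 at 65 days. The means differed by less than the SD at 65 days, though by more than the SD at 100 days. They were 33816 ± 377 at 100 days and 32807 ± 3650 at 65 days (SD over 3 libraries, exact permutation p = 0.7, two-sided). The smallest exact permutation p that 3 against 3 libraries allow is 0.1.

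Replicates were less alike at 65 days than at 100 days. The correlation between libraries over expressed unigenes, given as a description, was 0.879 to 0.914 within 100 days and 0.789 to 0.895 within 65 days. The mean was 0.901 within 100 days, 0.834 within 65 days and 0.849 for the 9 pairs of unlike age. The closest of all 15 pairs were replicate 3 of 100 days and replicate 2 of 65 days (r = 0.920), which are of different age. The points of such a correlation share the libraries and are not independent.

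**Figure D1:**
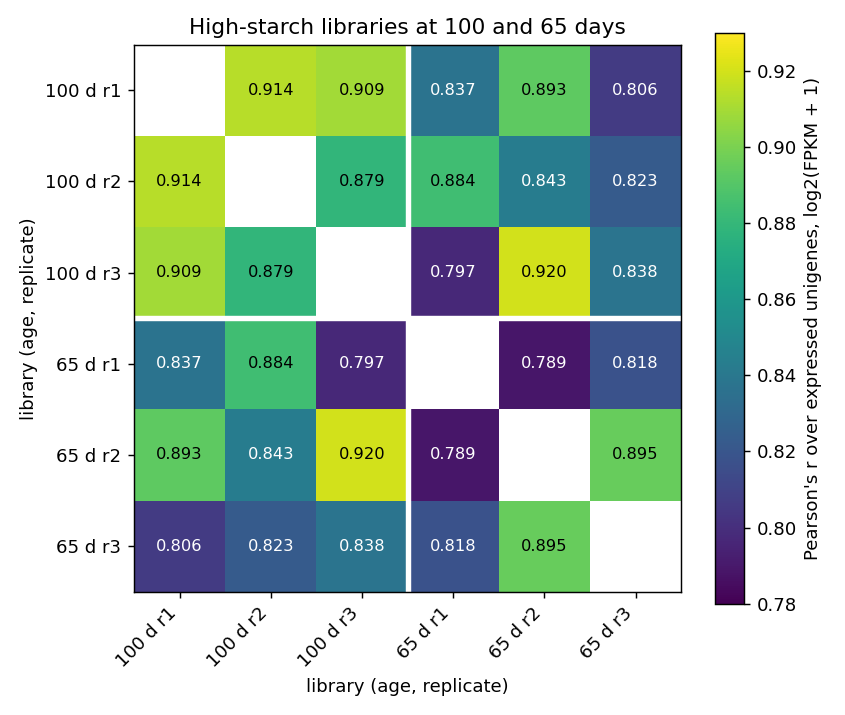
Pearson correlation of log2(FPKM + 1) over expressed unigenes for each pair of the 6 high-starch libraries, with white lines between the ages and replicates written r1 to r3. The 3 pairs within 100 days have 0.879 to 0.914, while replicate 1 of 65 days has 0.789 with replicate 2 of its own age and 0.884 with replicate 2 of 100 days.

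The spread of a single unigene shows the same thing. The median SD over 3 libraries was 0.41 at 100 days and 0.65 at 65 days (log2 scale), and the SD was larger at 65 days for 71.8% of the expressed unigenes. Replicate 1 of 65 days, the shallowest of the 6 libraries, was the one farthest from the median of its age for 49.7% of the unigenes, replicate 2 for 27.6% and replicate 3 for 22.7%. At 100 days the shares were 26.1%, 36% and 38% for replicates 1, 2 and 3. The larger spread at 65 days was present at every level of expression, with a median SD of 0.44 at 100 days and 0.67 at 65 days under 5 FPKM, and of 0.40 at 100 days and 0.66 at 65 days at 50 FPKM and over. The part that sequencing depth has in the larger spread was not tested.

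Age accounted for 25.3% of the variance of expressed unigenes among the 6 libraries, where 20% is the share of the degrees of freedom that a split into 2 groups takes. The first principal component (40.6% of the variance) did not order the libraries by age. Its scores were -11.5, 45.2 and -57.5 at 100 days, against 134.1, -75.4 and -35.0 at 65 days, so that it set replicate 1 of 65 days apart. The second component (30.9%) separated the ages, with scores of -70.5, -46.5 and -40.8 at 100 days, against 29.5, 13 and 115.3 at 65 days. The most distant library on it was replicate 3 of 65 days.

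No expressed unigene passed the test of the late difference. The test was limma on log2(FPKM + 1) over all 18 libraries and 32529 unigenes, of which the expressed unigenes are 82.3%. With Benjamini-Hochberg adjustment over all tested unigenes, 0 were higher and 0 lower at 100 days at an adjusted p under 0.05 and 2-fold or more (background 0% of tested unigenes in each direction). The smallest limma adjusted p was 0.0609. At an unadjusted limma p under 0.05, 912 expressed unigenes were higher and 1291 lower at 100 days, 3.40% and 4.82% of them, against 2.96% and 4.48% of all tested unigenes. Both directions together were 2203 (8.22%, background 7.44%). These shares are close to the background, so they say nothing particular of the expressed unigenes.

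Single libraries and the weighting of libraries moved these counts. Without replicate 3 of 65 days the unadjusted counts were 357 higher and 655 lower, and without replicate 1 of 100 days they were 548 and 777. Without replicate 2 of 65 days 1765 were higher and 1687 lower. Without replicate 1 of 65 days 0 were called higher and 3 lower at the adjusted threshold. Limma with array weights, which gives each library a weight estimated from its own scatter, called 92 higher (0.343%, background 0.283% of tested unigenes) and 248 lower (0.926%, background 0.879%), shares near the background. The ages did not overlap for 64 of the 92 and 200 of the 248. These weights ran from 0.352 for replicate 1 of 65 days to 2.643 for replicate 1 of 100 days among the 6 libraries, and they are themselves estimated from 3 libraries per group.

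The ages did not overlap for a part of the expressed unigenes. All 3 libraries of 100 days lay above all 3 of 65 days for 1659 of them (6.19%, background 5.66% of tested unigenes), and below them for 2228 (8.32%, background 7.62%). With a difference of at least 2-fold in addition, 631 were higher (background 2.03%) and 979 lower (background 3.24%). Most of the separated differences were therefore under 2-fold. In either direction 3887 (14.5%) were separated. If age had no bearing on the order of the 6 libraries, the probability of separation in either direction would be 0.1 for a unigene. That is the smallest exact permutation p of 3 against 3 libraries. Unigenes share the libraries, so the count was not tested against it, and separation alone does not mark an age difference. Leaving out a library makes separation easier. Leaving out 1 library of 100 days gave 2324 above and 2927 below (replicate 1), 3055 and 3371 (replicate 2) or 2980 and 3617 (replicate 3). Leaving out 1 library of 65 days gave 4149 and 4810 (replicate 1), 4447 and 4294 (replicate 2) or 2114 and 2916 (replicate 3).

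**Figure D2:**
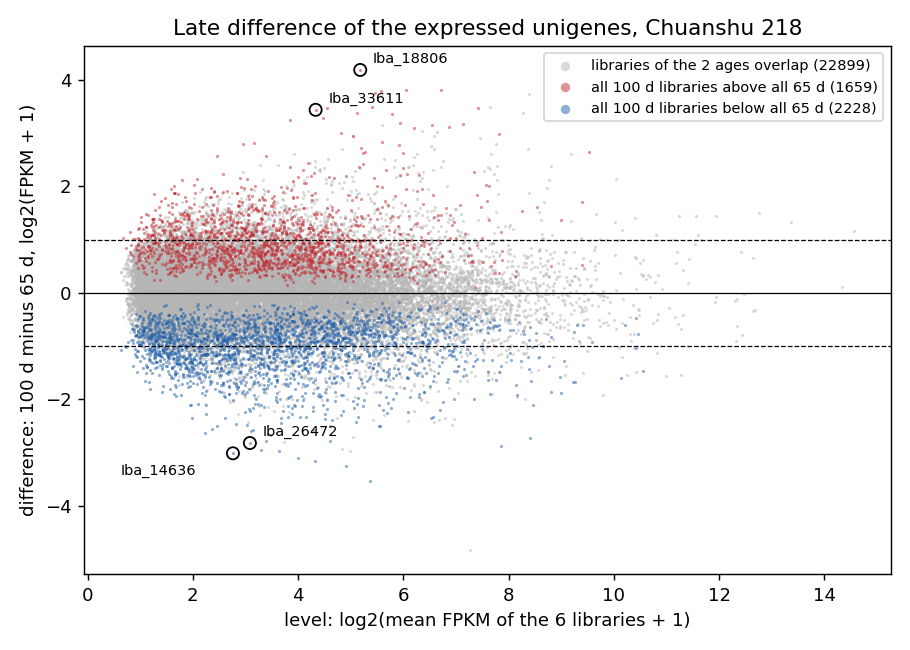
Difference between the ages (100 days minus 65 days, log2(FPKM + 1)) against level (log2 of the mean FPKM of the 6 libraries plus 1) for each expressed unigene, with dashed lines at 2-fold. Red points are the 1659 unigenes whose 100-day libraries all lie above the 65-day libraries, blue points the 2228 whose 100-day libraries all lie below, grey points the rest, and circles the 4 unigenes named in the text.

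By level, the excess of lower over higher separated unigenes was largest at both ends. Under 5 FPKM 493 of 10239 unigenes lay wholly above and 756 wholly below, so that 39.5% of the separated ones were higher. From 5 to 20 FPKM 699 were above and 764 below of 9012, or 47.8% higher. From 20 to 50 FPKM 305 were above and 392 below of 4303, or 43.8% higher. At 50 FPKM and over 162 were above and 316 below of 3232, or 33.9% higher. Over all levels the share was 42.7%. The counts hold 172 lower and 68 higher unigenes that the rule admitted only through 1 age, and that were separated by this alone. How many lie in each class was not counted, so the excess under 5 FPKM may follow in part from the rule. After quantile normalization, which forces 1 distribution on all libraries, 1929 were above and 1954 below.

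**Figure D3:**
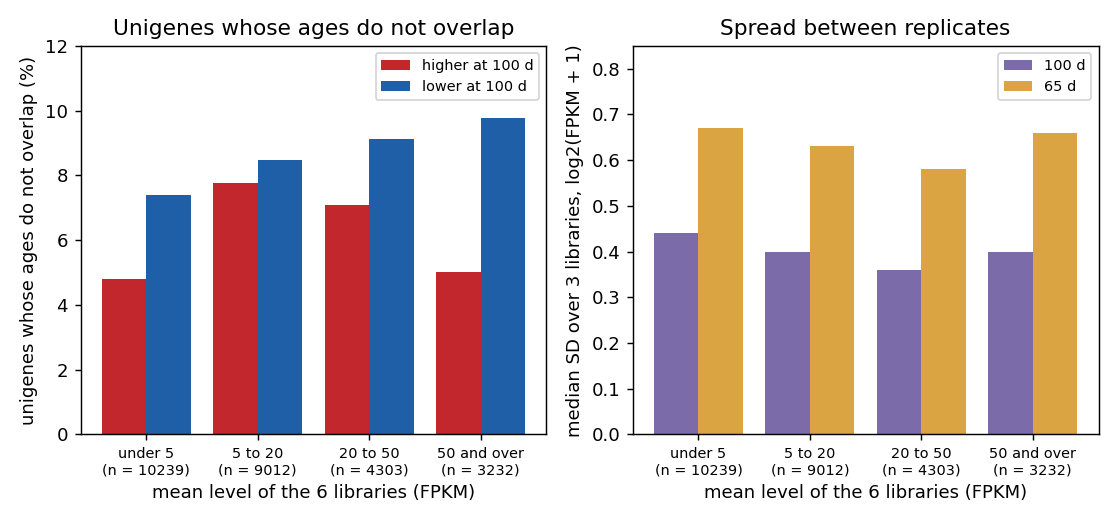
Left, the share of expressed unigenes (%) whose 100-day libraries all lie above (red) or below (blue) the 65-day libraries, in 4 classes of mean FPKM. Right, the median SD over 3 libraries at 100 days (purple) and 65 days (yellow); the 65-day bar is the taller one in each class, for example 0.67 against 0.44 under 5 FPKM.

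Separated unigenes made up a moderate part of the RNA. The 1659 separated and higher unigenes together held 5.26%, 5.56% and 5.27% of the FPKM at 100 days, against 2.01%, 3.28% and 2.41% at 65 days. The 2228 separated and lower ones held 4.76%, 4.95% and 5.16% at 100 days, against 7.91%, 9.58% and 12.7% at 65 days. These values follow from how the lists were chosen. In the 30-day libraries, which the choice did not use, the first list held 2.88%, 3.47% and 3.17% and the second 6.68%, 13% and 10.8%.

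Unigenes at least 2-fold apart in mean numbered 1686 higher (6.29%, background 5.39%) and 1766 lower (6.59%, background 6.70%). The order of the 2 counts turned with the scale: quantile normalization gave 2045 higher and 1777 lower, a pseudocount of 0.5 gave 2458 and 2250, a pseudocount of 0.1 gave 3731 and 2851, and leaving out replicate 2 of 65 days gave 3260 and 2830. No direction is therefore given to the 2-fold differences as a whole.

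Larger differences leaned on replicate 3 of 65 days. At least 4-fold higher at 100 days were 137 expressed unigenes (background 0.421%), and at least 4-fold lower were 116 (background 0.649%). In the 4-fold higher set the median FPKM was 32.6, 86.5 and 44.2 at 100 days, against 18.0, 7.45 and 2.64 at 65 days. Replicate 3 was the lowest 65-day library for 101 of the 137 (73.7%), against 28.9% of all expressed unigenes. In the 4-fold lower set the median FPKM was 3.93, 3.90 and 3.54 at 100 days, against 18.9, 15.3 and 44.2 at 65 days. Here replicate 3 was the highest 65-day library for 72 of the 116 (62.1%), against 27.3% of all.

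Without replicate 3 of 65 days, 77 unigenes were 4-fold higher and 62 lower. Both counts were larger without replicate 1 of 65 days (331 higher, 285 lower), without replicate 2 of 65 days (301 and 307) and without replicate 3 of 100 days (253 and 180). Without replicate 2 of 100 days 129 were higher and 227 lower. The ages did not overlap for 64 of the 137 and 85 of the 116. At least 8-fold apart were 25 higher (background 0.0769%) and 6 lower (background 0.0738%). Replicate 3 was the highest 65-day library for each of the 6 lower ones.

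Switches between listed absence and presence were rare. At 0 FPKM in all 65-day libraries and at 1 FPKM or more in all 100-day libraries was 1 expressed unigene, and 6 showed the opposite listing. A listed 0 does not show absence. The rule admitted 68 unigenes only through the 100-day libraries and 172 only through the 65-day libraries, and these had to differ. Close to the limit, 2108 expressed unigenes reached 1 FPKM in exactly 3 of the 6 libraries (median of the mean levels 1.20 FPKM), and 2680 left out reached it in exactly 2 (median 0.822 FPKM).

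A few unigenes are given in full. With no gene names, 2 IDs per direction were taken, those with the widest gap between the ages among separated unigenes that differed at least 2-fold and averaged at least 10 FPKM at the higher age. These conditions left 360 unigenes higher and 564 lower at 100 days. The gap runs on the log2 scale from the lowest library of the higher age to the highest library of the lower age. The separation of the ages is part of the choice, and none of the 4 passed the test.

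Iba_18806 had 32.38, 52.39 and 119.11 FPKM at 100 days, against 4.49, 2.40 and 0.89 FPKM at 65 days. Every 100-day library was high, although the 3 differed among themselves by more than the 65-day ones did in FPKM. The difference was 4.19 (SE 0.95, limma adjusted p = 0.46), the largest positive one among expressed unigenes, with a gap of 2.60. The limma adjusted p was 0.0216 with array weights and ran up to 1.0 over the 18 alternatives. At 30 days the unigene was as low as at 65 days, with 4.20, 0.45 and 0.96 FPKM. In the low-starch cultivar it had 26.04, 2.65 and 12.43 FPKM at 100 days, against 2.26, 0.61 and 10.24 FPKM at 65 days, where the ages overlap. The low-starch libraries of 30 days had 0.81, 28.41 and 6.65 FPKM.

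Iba_33611 had 10.95, 79.60 and 19.84 FPKM at 100 days, against 1.80, 1.26 and 1.48 FPKM at 65 days. Its 65-day libraries were close together, and its 100-day mean of 36.8 ± 37.3 FPKM (SD, n = 3) rests much on replicate 2. The difference was 3.44 (SE 0.94, limma adjusted p = 0.529), with a gap of 2.09. Over the 18 alternatives the limma adjusted p ran from 0.0524 with array weights to 1.0. At 30 days it had 16.07, 3.31 and 5.88 FPKM, above every 65-day library. The low-starch cultivar had 8.68, 5.16 and 5.98 FPKM at 100 days, against 12.86, 3.58 and 20.80 FPKM at 65 days. Its 30-day libraries had 3.44, 126.65 and 12.53 FPKM, so that 1 of them lay above every high-starch library of 100 days.

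Iba_26472 had 1.29, 1.34 and 0.64 FPKM at 100 days, against 11.40, 12.01 and 18.20 FPKM at 65 days, so that the replicates of either age lay close together. The difference was -2.82 (SE 0.40), and its limma adjusted p of 0.0609 was the smallest of all expressed unigenes. It was under 0.05 with no eBayes trend (0.0172), with array weights (0.00206) and without replicate 1 of 65 days (0.0465), and ran up to 0.667 without replicate 3 of 65 days. At 30 days it had 12.74, 7.37 and 5.21 FPKM, so that the level was low at 100 days alone among the high-starch ages. The low-starch cultivar was listed at 0 in all 3 libraries at 100 days, against 0.22, 0.18 and 0 FPKM at 65 days.

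Iba_14636 had 0.08, 0.24 and 0.18 FPKM at 100 days, against 4.0, 5.46 and 24.74 FPKM at 65 days. All its 100-day libraries were under 1 FPKM and all its 65-day libraries above. It is thus among the 172 unigenes admitted only through the 65-day libraries, which had to differ. Replicate 3 was far above the other 65-day libraries. The difference was -3.01 (SE 0.59, limma adjusted p = 0.436), -2.29 without that library and -5.0 with a pseudocount of 0.1. The limma adjusted p was 0.0144 with array weights and ran up to 1.0 over the 18 alternatives. At 30 days it had 6.4, 10.24 and 17.57 FPKM, in the range of 65 days. The low-starch cultivar had at most 0.86 FPKM at 100 days and at most 1.75 FPKM at 65 days.

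**Figure D4:**
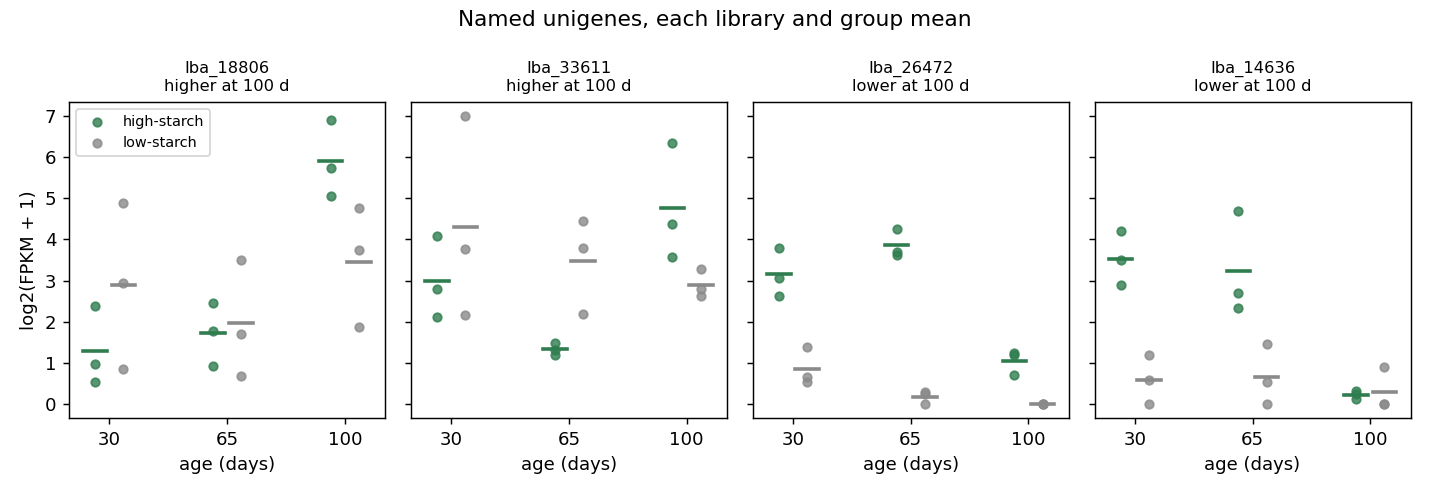
Level, log2(FPKM + 1), of the 4 named unigenes at 30, 65 and 100 days in each library (points) with the group mean (bars), high-starch in green and low-starch in grey. Iba_26472 and Iba_14636 have similar high-starch levels at 30 and 65 days and low ones at 100 days, while both stay low in the low-starch cultivar.

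The share of the FPKM in the most abundant unigenes varied between libraries and overlapped between the ages. The 10 most abundant unigenes of a library took 13.9%, 7.69% and 17.3% of the FPKM at 100 days, against 10.8%, 11.4% and 8.29% at 65 days (100 days 13% ± 4.87, 65 days 10.2% ± 1.65, SD, n = 3 each; exact permutation p = 0.5, two-sided). The unigenes that together hold 50% of the FPKM numbered 667, 833 and 434 at 100 days, against 524, 757 and 893 at 65 days (exact permutation p = 0.6, two-sided). The difference in the top-10 share was 2.8 percentage points, 0.632 without replicate 3 of 100 days, 5.44 without replicate 2 of 100 days and 1.86 without replicate 3 of 65 days. Replicate 2 of 100 days was the least concentrated of the 6 libraries by its top 10, and replicate 3 of 100 days the most.

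Of the 10 unigenes with the highest mean over the 6 libraries, 0 had ages without overlap. The first had 38361, 15451 and 43935 FPKM at 100 days, against 29334, 7754 and 10224 FPKM at 65 days, a difference of 1.16 (SE 1.48, limma adjusted p = 0.906). The second had 22042, 10321 and 34515 FPKM at 100 days, against 26207, 19403 and 12338 FPKM at 65 days, a difference of 0.11 (SE 1.43). Over the 10 the differences ran from -0.78 to 1.51. Among the 100 most abundant, 0 were wholly above and 6 wholly below at 100 days, against 6.19% above and 8.32% below of all expressed unigenes. At least 2-fold apart in mean were 13 higher and 12 lower, against 6.29% and 6.59% of all.

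Within the top 10, 6 unigenes lay within 27 consecutive ID numbers. Their summed share of the FPKM was 11.5%, 4.75% and 13.7% at 100 days, against 7.29%, 4.95% and 3.66% at 65 days. The ages overlap, since replicate 2 of 100 days was below 2 of the 65-day libraries. The differences of the 6 ran from 0.11 to 1.51, each smaller than or about as large as its SE of 1.17 to 1.49.

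**Figure D5:**
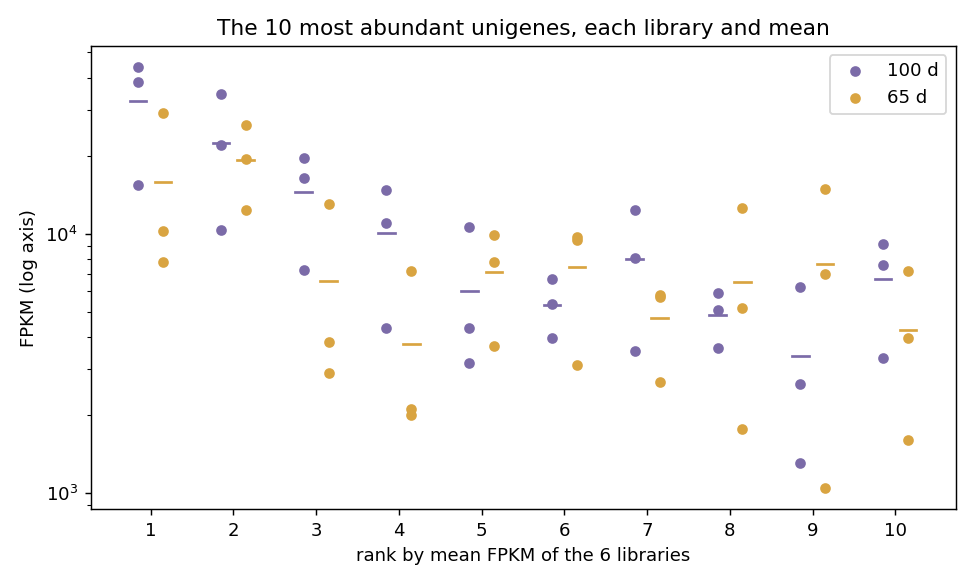
FPKM (log axis) of the 10 unigenes with the highest mean over the 6 high-starch libraries, each library as a point and the group mean as a bar, 100 days in purple left of 65 days in yellow. The 2 ages overlap for each of the 10; the first runs from 15451 to 43935 FPKM at 100 days and from 7754 to 29334 FPKM at 65 days.

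The 30-day libraries show where the separated unigenes stood earlier. They were not used to choose them. Of the 1659 separated and higher unigenes, 1276 (76.9%) had a 30-day mean nearer to the 65-day than to the 100-day mean, against 63.2% of all expressed unigenes. For the 2228 separated and lower ones it was 1407 (63.2%), the same share as in all. The 30-day mean lay above both later means for 80 of the higher and 469 of the lower unigenes, and below both for 495 of the higher and 246 of the lower. The 30-day mean was between the later 2 for 65.3% of the higher and 67.9% of the lower list, against 37.2% of all expressed unigenes, of which 26.0% were above both and 36.8% below both. Lists chosen for a gap between 65 and 100 days hold the 30-day mean inside it more often, so these shares follow in part from the choice. Replicates at 30 days had a median SD of 0.62, close to that of 65 days.

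In the low-starch cultivar, whose libraries are wholly separate, the same unigenes had little common movement. Their median low-starch difference, 100 days minus 65 days, was -0.04 for the separated and higher list and -0.01 for the separated and lower list, against -0.01 over all expressed unigenes. Low-starch libraries of 100 days lay wholly above those of 65 days for 45 of the first list (2.71%) and wholly below for 73 (4.4%), where 2.60% and 3.41% of all expressed unigenes did (background of tested unigenes 2.41% and 3.58%). Of the second list 79 (3.55%) were wholly below and 59 (2.65%) wholly above. The 45 shared higher unigenes are 2.71% of the high-starch list and 6.47% of the 696 wholly higher in the low-starch cultivar, and the 79 shared lower ones are 3.55% and 8.65% of the 2 lists.

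The unigenes at least 4-fold apart were looked up in the low-starch cultivar in the same way. Of the 137 unigenes 4-fold higher at 100 days in the high-starch cultivar, 104 (75.9%) also had a higher low-starch mean at 100 days, with a median difference of 0.62, against 45.6% of all expressed unigenes and 44.4% of the separated and higher list. Of the 116 that were 4-fold lower, 75 (64.7%) had a lower low-starch mean, with a median of -0.19, against 50.5% of all and 51.3% of the separated and lower list. Low-starch replicate 3 stood apart at both ages, its 10 most abundant unigenes taking 40.5% of the FPKM at 100 days and 25.8% at 65 days. Without it, 111 of the 137 were higher (81.0%, median 0.99, against 44.6% of all) and 62 of the 116 lower (53.4%, median -0.12, against 50.5% of all), which for the lower set is close to the share of all. Unigenes are not independent replicates, and these shares are descriptions.

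The test of whether the late difference itself differs between the cultivars called 0 expressed unigenes (limma interaction, adjusted p under 0.05 and at least 2-fold; background 0%), and 1266 (4.73%, background 4.75%) had an unadjusted p under 0.05. Of these, 679 rose more, or fell less, in the high-starch cultivar (background 2.63%), and 587 rose less, or fell more (background 2.12%). Among the named unigenes the interaction was 2.69 (SE 1.34) for Iba_18806, 4.02 (SE 1.33) for Iba_33611, -2.65 (SE 0.57) for Iba_26472 and -2.65 (SE 0.83) for Iba_14636, each with a limma adjusted p of 0.948. These 4 were chosen for their high-starch gap, which the interaction contains, so its sign and size follow in part from the choice. At 65 days in the low-starch cultivar Iba_26472 had at most 0.22 FPKM and Iba_14636 at most 1.75 FPKM. Neither could fall far there.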

How the data were processed

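The data are 1 table of FPKM values, as deposited by the authors, for 46840 unigenes in 18 root libraries (2 cultivars, 3 ages, 3 libraries each). Per the labels, libraries were made with a TruSeq stranded mRNA kit. The submitters' processing notes name edgeR without role or version. The aligner, the counter and the way libraries were scaled against each other are not named in the labels. Reads per library are also unknown, so no counting interval is given.

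FPKM are not counts, so limma 3.58.1 (R 4.3.3) was run on log2(FPKM + 1), which understates differences of low unigenes. The fit held all 18 libraries in 6 groups (12 residual degrees of freedom, eBayes with trend) and the 32529 unigenes that reached 1 FPKM in 3 or more libraries. Unigenes were called at a Benjamini-Hochberg adjusted p under 0.05 and 2-fold. Expressed unigenes were taken as stated in the report. The limma step and the relative value of 1 read were tested on simulated data. Per-library measures were compared by exact permutation (Python 3.11.15, SciPy 1.17.1).

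The rule for named unigenes is in the report. The expressed unigenes, lists and tests were chosen with earlier results of these data known. Alternatives were pseudocounts of 0.1 and 0.5, no filter, a 5 FPKM filter, median-of-ratios and quantile scaling, no trend, fits of 6 or 9 libraries, a replicate block, array weights, relative depth as a covariate, and leaving out each of the 6 libraries.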

Additional observations from a re-analysis of the deposited data

How the results depend on the processing

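With limma, 0 expressed unigenes were called higher under 17 of 18 alternatives and 0 lower under 13 of 18. The exceptions were array weights (92 higher, 248 lower), 1 lower each with no filter, with no eBayes trend and in a fit of the 9 high-starch libraries, and a range of 0 to 3 lower when each library was left out. With no filter, all values here cover the 40871 unigenes above 0 FPKM in any of the 6 libraries, not only the 26786 expressed ones. Unadjusted counts were 2457 higher and 2924 lower with array weights, and ranged from 357 to 1765 higher and from 655 to 1687 lower without single libraries. Separated unigenes ranged from 2114 to 4447 higher and from 2916 to 4810 lower without single libraries, where fewer libraries have to separate. A filter at 5 FPKM, which keeps fewer unigenes, left 1438 separated and lower and 1139 at least 2-fold lower. At least 2-fold apart were 3731 higher and 2851 lower with a pseudocount of 0.1, and from 1350 to 3260 higher and from 1502 to 2830 lower without single libraries. At least 4-fold apart were 792 higher and 486 lower with a pseudocount of 0.1, 228 and 199 with a pseudocount of 0.5, and 211 lower with no filter. The median difference stayed between -0.01 and 0.06, the interaction called 0 under the 16 alternatives that could give it (not the fits of 6 or 9 libraries), and the difference in the top-10 share ranged from 0.632 to 5.44 percentage points when single libraries were left out, with its sign kept under 8 of 8.

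Replicate numbers are shared between the ages but not tied to plants. Deviations of same-numbered libraries from their age means had correlations of -0.003, -0.51 and 0.197, so the numbers were not taken as pairing. With the replicate number as a block, limma called 0 and 0, with 1067 higher and 1463 lower at an unadjusted p under 0.05. Over expressed unigenes, no 100-day library correlated best with the 65-day library of its own number. Of the 65-day libraries only replicate 3 correlated best with its own number at 100 days. The absolute depth is unknown, which limits what can be said of unigenes near 1 FPKM.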

Other observations

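A set of tested unigenes outside the 26786 had large differences from only some libraries. Of the tested unigenes that missed the rule, 95 were at least 4-fold lower at 100 days and 0 at least 4-fold higher. Among the 95, 83 reached 1 FPKM in replicates 1 and 3 of 65 days and not in replicate 2. Their median was 0 FPKM in all 3 libraries of 100 days, against 29.1, 0 and 4.56 FPKM in replicates 1, 2 and 3 of 65 days. The set had the same on or off listing elsewhere: at 30 days the median was 34.9 FPKM in high-starch replicate 1 and 0 in replicates 2 and 3. Low-starch medians were 23.6, 6.04 and 14.7 FPKM at 30 days, 24.1, 0 and 11.9 FPKM at 65 days and 20.7, 26.6 and 0 FPKM at 100 days. At least 79 of the 83 reached 1 FPKM in each library with a median above 0, and at most 4 in each of the others. The set took 0.254% and 0.142% of the FPKM in replicates 1 and 3 of 65 days. Libraries with and without the set occurred in both cultivars and at each age, though more low-starch than high-starch libraries had it. The listing was noticed after the values were seen.

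Differences were alike for unigenes with neighbouring IDs. Over the 17676 pairs of expressed unigenes with consecutive ID numbers, the late difference of one and the next had r = 0.25, a description over unigenes that share libraries. After a separated and lower unigene the next was also separated and lower in 21.3% of cases, against 8.32% of all expressed unigenes. After a separated and higher one the next was also higher in 12.2% of cases, against 6.19% of all. Whether neighbouring IDs share sequence or reads was not tested, so the counts of separated unigenes need not be counts of independent genes.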
